A study of Mus musculus with 4 samples.

Results

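The 39 Hox genes of the mouse lie in 4 clusters, and open chromatin at these genes was compared between hindlimb muscles and the diaphragm. A peak was counted as a Hox peak when the authors' annotation named a Hoxa, Hoxb, Hoxc or Hoxd gene as nearest, whatever its score. Of 120839 peaks in the 4 lists, 55 met this rule, and they joined into 27 of the 53883 merged regions that peaks of the 4 lists form when they overlap.

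ATAC-seq uses the Tn5 transposase to place sequencing adapters where DNA is accessible. It was run on frozen, powdered muscle of wild-type male mice, all of them untrained, whose strain is C57BL/6 in the labels and C57BL/6J in the study's methods. Of the hindlimb muscles, the study describes extensor digitorum longus (EDL) and quadriceps (Quad) as mainly glycolytic and soleus (Sol) as oxidative. The diaphragm (Dia) is a muscle of the trunk. In the study's ATAC-seq, Dia was most similar to Sol, and EDL to Quad. Muscle type thus differs along with body position between EDL or Quad and Dia, and their parts were not tested. For each muscle 1 library, labelled as pooled, was analysed, so no difference below has a replicate check and intervals cover counting error only. How many animals each pool held and their age at harvest are not given in the sources used here. The EDL list held 30136 peaks, Quad 40337, Sol 28784 and Dia 21582. In a piece of whole muscle, fewer cells of a type that is open at a site and less opening per cell cannot be told apart.

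Hox genes encode homeodomain transcription factors that give cells their position along the body axis. Their order along the chromosome follows the order in which they are used, with paralogue number 1 at the head end and number 13 at the tail end and the tip of the limb. Genes with one number in different clusters are paralogues, copies of one ancestral gene. The hindlimb forms at a level where high-numbered genes are active and their Hoxa and Hoxd members pattern the limb bud, while the muscle of the diaphragm descends from somites of the neck. Connective tissue cells of the adult body keep part of this positional code. Hox proteins bind DNA with partners of the PBX and MEIS families.

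The sequences of 2 regions are shown because both were open in every muscle, one inside its cluster and one beyond the end of its cluster, and Dia ranked lowest at each. Each is the stretch that all peaks of the region share. They were read from the RefSeq sequence of GRCm38.p6 (mm10), plus strand, and capitals mark CpG dinucleotides.
Hoxc8 +8834: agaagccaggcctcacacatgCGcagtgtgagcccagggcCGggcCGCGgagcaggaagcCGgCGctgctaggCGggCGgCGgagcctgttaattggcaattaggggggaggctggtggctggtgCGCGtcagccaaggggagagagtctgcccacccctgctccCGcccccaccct
Hoxb1 +42090: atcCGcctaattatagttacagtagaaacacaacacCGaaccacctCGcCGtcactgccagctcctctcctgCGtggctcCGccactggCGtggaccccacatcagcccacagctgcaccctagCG

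A region is named by its nearest gene and the median distance in bp from the transcription start site (TSS) of that gene, negative upstream. The Hoxc8 stretch, at chr15:102999280-102999456, lies in an intron that GENCODE gives to Hoxc5 and Hoxc6, and holds 12 CpG in 177 bp. The Hoxb1 stretch, at chr11:96407783-96407908, overlaps no annotated gene and lies beyond the low-numbered end of its cluster.

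The first comparison asked how many Hox peaks each muscle holds. EDL held 18 Hox peaks, 0.0597% of its list (95% Wilson interval 0.0378% to 0.0944%). Quad also held 18, or 0.0446% (0.0282% to 0.0705%), Sol held 12, or 0.0417% (0.0239% to 0.0729%), and Dia held 7, or 0.0324% (0.0157% to 0.0669%). The count was lowest in Dia, but the 4 intervals overlap, so the shares could not be separated at this number of peaks.

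By gene, 15 of the 39 Hox genes had at least 1 peak in EDL, against 54.7% of protein-coding genes in that list. In Quad 12 had one (background 60.2%), in Sol 11 (54.5%) and in Dia 6 (51.2%). In at least 1 hindlimb list 18 had one, or 46.2% (background 64.4%). Over all lists, 19 Hox genes, or 48.7%, had a peak, where 65.6% of the 21900 protein-coding genes did. The other 20 Hox genes had none: Hoxa2, Hoxa6, Hoxa9, Hoxa13, Hoxb3, Hoxb5, Hoxb6, Hoxb7, Hoxb13, Hoxc6, Hoxc9, Hoxc11, Hoxc12, Hoxd1, Hoxd3, Hoxd4, Hoxd8, Hoxd11, Hoxd12 and Hoxd13. Most Hox genes of the d cluster, 7 of 9, were in this group. Because clusters are dense, a peak next to one of these genes can carry the name of a neighbour.

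**Figure D1:**
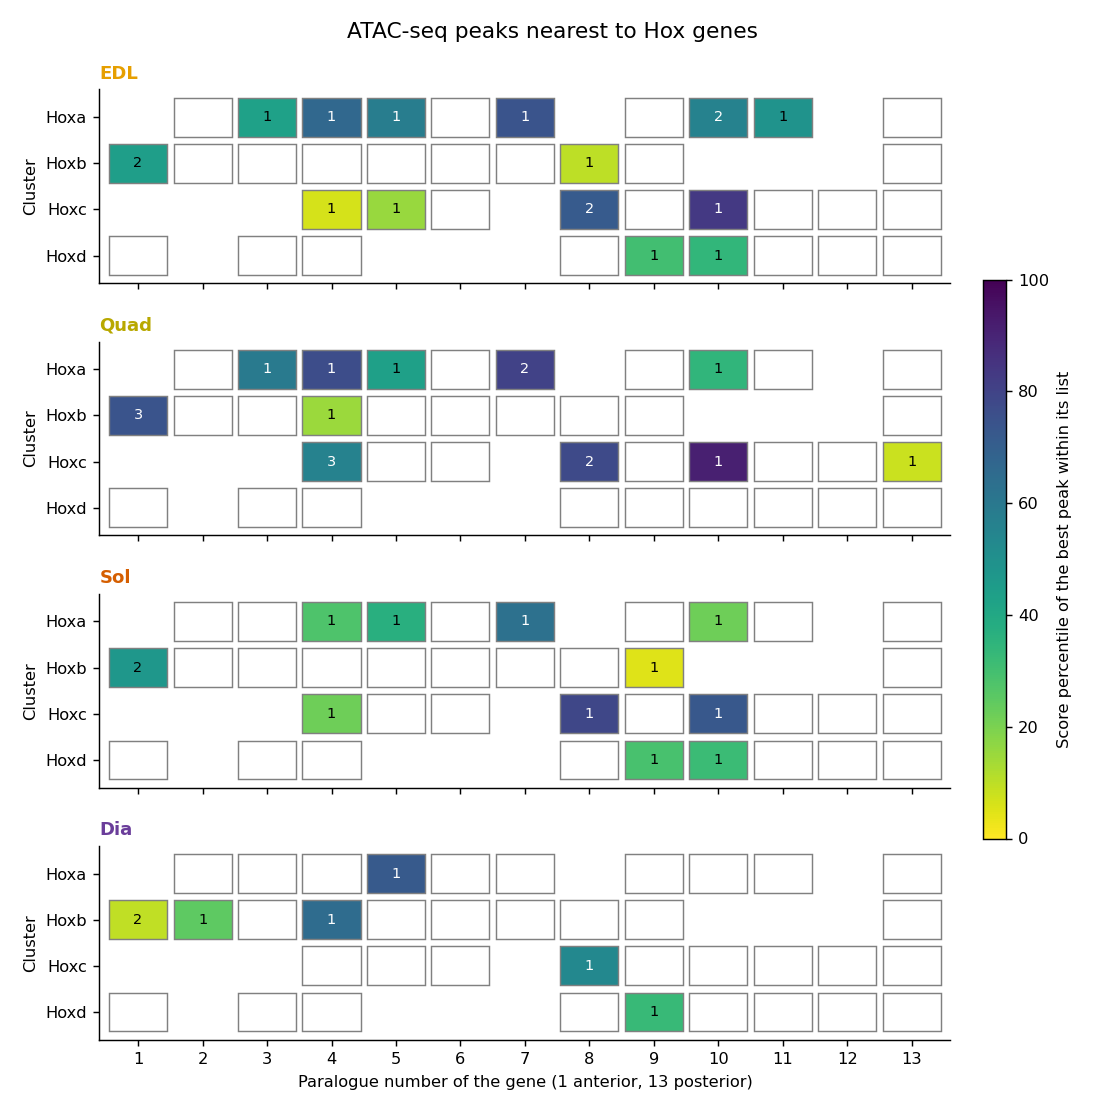
Hox genes by cluster (rows) and paralogue number (columns), with 1 panel per muscle. A box is a gene, the number in it counts its peaks in that list, the colour gives the score percentile of the best of them, and an empty box has no peak. The Dia panel has 6 filled boxes, none to the right of group 9.

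The second comparison set the hindlimb lists against Dia, gene by gene. With a peak in at least 1 hindlimb list and none in Dia there were 13 Hox genes, or 33.3%, where 14.4% of protein-coding genes showed this pattern. Among them were Hoxa3, Hoxa4, Hoxa7, Hoxa10, Hoxa11, Hoxb8, Hoxb9, Hoxc4, Hoxc5, Hoxc10, Hoxc13 and Hoxd10. Hoxa4, Hoxa7, Hoxa10, Hoxc4 and Hoxc10 had a peak in each of the 3 hindlimb lists, though the Sol peak of Hoxc4 lay beyond the end of its cluster. Hoxa5, Hoxb1, Hoxb4, Hoxc8 and Hoxd9 had a peak in Dia and in a hindlimb list, and 3 of these, Hoxa5, Hoxb1 and Hoxc8, had one in every list. Hoxb2 alone had a peak in Dia and in no hindlimb list, where 1.22% of protein-coding genes did. The count by name depends on which of several close TSSs is nearest, and some peaks between Hox genes were named for a non-coding neighbour.

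Regions depend less on this naming, since a region was called open in a muscle when any peak of that list lay in it. A region still entered the set through a peak that carries a Hox name, and cluster regions without such a peak are given further below. Of the 27 Hox regions, 19 were open in hindlimb and not in Dia, or 70.4% (51.5% to 84.1%), where all merged regions gave 59.9%. The background lies inside the interval, so this share is near that of the genome. All 3 hindlimb muscles without Dia shared 3 regions, 11.1% against 8.09% of all regions. EDL and Quad alone shared 4, or 14.8% (5.92% to 32.5%) against 8.05%. Every muscle was open at 5 regions, 18.5% against 26.9%, and Dia with 1 or 2 hindlimb muscles at 2, 7.41% against 8.54%. Only 1 region was listed in Dia alone, 3.70% against 4.61%. Dia was open at 8 Hox regions, 29.6% (15.9% to 48.5%) against 40.1%. EDL was open at 18, or 66.7% against 55.9%, Quad at 18, or 66.7% against 74.8%, and Sol at 13, or 48.1% against 53.4%.

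The third comparison followed paralogue number. Among the 6 regions of groups 1 to 3, 4 held a Dia peak, or 66.7% (30.0% to 90.3%). Of 13 regions of groups 4 to 8, 3 did, or 23.1% (8.18% to 50.3%), and of 8 regions of groups 9 to 13, 1 did, or 12.5% (2.24% to 47.1%). The shares fell from low to high numbers, but all 3 intervals overlap, and each includes the 40.1% of all regions. Of the 4 regions of groups 1 to 3 with a Dia peak, 2 were named for Hoxb1 and lay beyond the end of its cluster. Their Dia peaks, at percentiles 9.72 and 4.66, were the lowest-ranked Hox peaks of that list.

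**Figure D2:**
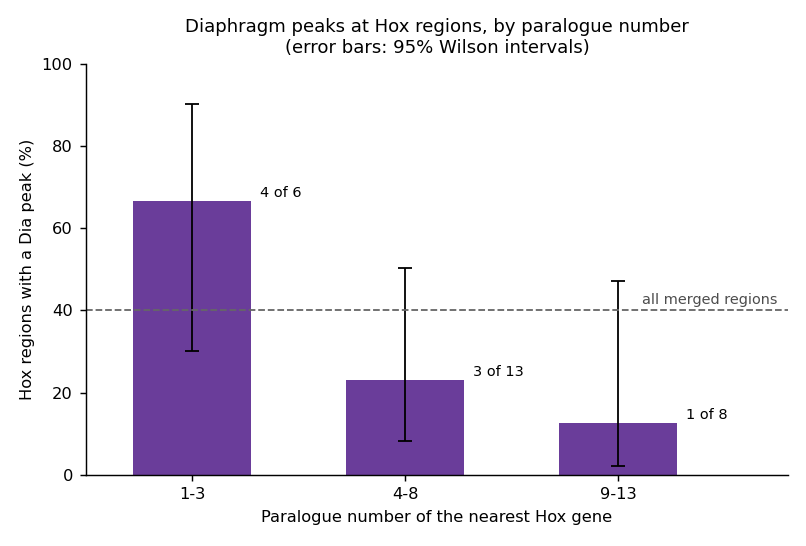
Share of Hox regions with a Dia peak (percent, vertical axis) by paralogue number of the nearest gene. In groups 1 to 3, 2 of the 4 regions with a Dia peak are those of Hoxb1 beyond the end of its cluster. Bars are shares, error bars are 95% Wilson intervals for counting error, and the dashed line is the share over all merged regions, 40.1%; the bars stand at 66.7%, 23.1% and 12.5%, with overlapping intervals.

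Counted by gene, the same order held in Dia but not in the hindlimb. Of the 8 genes of groups 1 to 3, 3 had a peak in EDL, 3 in Quad and 1 in Sol, with 2 in Dia. Of the 15 genes of groups 4 to 8, 7 had one in EDL, 6 in Quad and 5 in Sol, with 3 in Dia. Of the 16 genes of groups 9 to 13, 5 had one in EDL, 3 in Quad and 5 in Sol, and Dia had 1, at Hoxd9. A narrower set, groups 10 to 13, was looked at with the values known, and it leaves out Hoxd9, the one gene above group 8 with a Dia peak. Among its 12 genes, EDL had peaks at Hoxa10, Hoxa11, Hoxc10 and Hoxd10. Quad had them at Hoxa10, Hoxc10 and Hoxc13, and Sol at Hoxa10, Hoxc10 and Hoxd10. Dia had none, which follows in part from that choice, and the interval of 0% to 24.2% overlaps those of EDL (13.8% to 60.9%) and of Quad and Sol (8.89% to 53.2%).

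Read counts of these libraries were not analysed here, and depth could be read from the scores alone. Scores below 10 were whole multiples of 1 step in all lists. If a step is 1 tag and scores are scaled to 10 M tags (M, mega), a scale that was not checked, the libraries held 103.9 M tags in EDL, 78.1 in Quad and 104.6 in Sol, with 99.3 in Dia. The lowest peak of the Dia list then held 36 tags, against 34 in EDL, 25 in Quad and 32 in Sol. A Hox site missing from the Dia list can thus still hold tags below that threshold. All 48 hindlimb Hox peaks scored at or above the lowest Dia score of 3.63. Since lists differ in length, scores are given below as a percentile within the own list, with the range that a 95% counting interval of the inferred tags allows.

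Hoxc10 held the highest-ranked hindlimb peaks at a region without a Dia peak. It encodes a high-numbered factor of the lumbar region and hindlimb. Its promoter region (-148) scored 12.5 in EDL, 16.3 in Quad and 10.1 in Sol. These were percentile 83.4 in EDL (75.1 to 89.1), 91.3 in Quad (86.3 to 94.6) and 72.7 in Sol (59.8 to 82.2), from 130, 127 and 106 tags. No Dia peak was listed there, and the nearest lay 32472 bp away. The Quad peak was the highest-ranked of all 55 Hox peaks.

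Hoxa10 and Hoxa11, which pattern the upper and middle parts of the limb, had further hindlimb regions on chromosome 6. The Hoxa10 region at +318 (52240385 to 52240639, 5′ UTR) was at percentile 22.3 in EDL, 34.4 in Quad and 21.9 in Sol, each low in its list. EDL alone had the promoter peaks at -59 of Hoxa10 (52234894 to 52235102), percentile 56.1, and at -1 of Hoxa11 (52245707 to 52245915), percentile 48.7. The nearest Dia peaks were 35787 bp, 30296 bp and 41109 bp away. Hoxd10, which acts with Hoxa10 in the limb, had a promoter region (-137, chromosome 2, 74691650 to 74691858) at percentile 34.3 in EDL and 32.01 in Sol. Hoxc13, a gene of tail and hair follicles, had a peak in Quad alone, at -25112 bp and percentile 7.89. That peak lay beyond the end of its cluster. Hoxb9 had a peak in Sol alone at percentile 5.06. Thus Hoxc10 and Hoxa10 were the genes of groups 10 to 13 with peaks in all 3 hindlimb lists, and the others appeared in 1 or 2.

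At Hoxd9, the neighbour of Hoxd10, Dia did hold a peak. Its region (+155, chromosome 2, 74697661 to 74698050) was at percentile 30.1 in EDL, 29.3 in Sol and 32.7 in Dia, with overlapping ranges, and no Quad peak was listed. The Quad list held 0 Hoxd peaks, against 2 in EDL, 2 in Sol and 1 in Dia. The nearest Quad peak to the Hoxd9 region lay 17720 bp away.

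Among groups 4 to 8 the highest-ranked region without Dia lay at -3183 bp from Hoxa7, a gene of the thoracic region (chromosome 6, 52221652 to 52221985, a UTR of Hoxa7 in GENCODE). It was at percentile 73.9 in EDL (62.1 to 82.9), 80.4 in Quad (70.2 to 87.6) and 63.2 in Sol (48.5 to 75.5), and the nearest Dia peak lay 17054 bp away. Quad alone had a second Hoxa7 region at +994, percentile 73.3. Hoxa4, which acts in the neck and upper trunk, had an intragenic region at +2408 open in EDL at percentile 66.4 and in Quad at 76.9. Sol instead had a promoter peak of Hoxa4 at -285, percentile 27.7, which lay 2445 bp from the EDL peak and 2537 bp from the Quad peak. Hoxc4, its paralogue in the c cluster, had a region at -6895 (percentile 6.46 in EDL, 52.1 in Quad), one at +34884 (41.8 in Quad, 21.9 in Sol) and one at +55174 (55.7 in Quad). The regions at +34884 and +55174 lay beyond the low-numbered end of the cluster. A gene could thus have peaks in all hindlimb muscles without one region that all of them shared, as at Hoxa4 and Hoxc4.

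Other hindlimb regions were listed in EDL, with or without Quad. Hoxc8 -2906 was at percentile 24.04 in EDL and 36.4 in Quad. EDL alone had Hoxb8 -2955, at percentile 10.1, and Hoxc5 +254, at percentile 15.4. Hoxa3, a gene of the pharyngeal arches, had an intronic region at +1266 at percentile 43.2 in EDL and 59.0 in Quad.

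**Figure D3:**
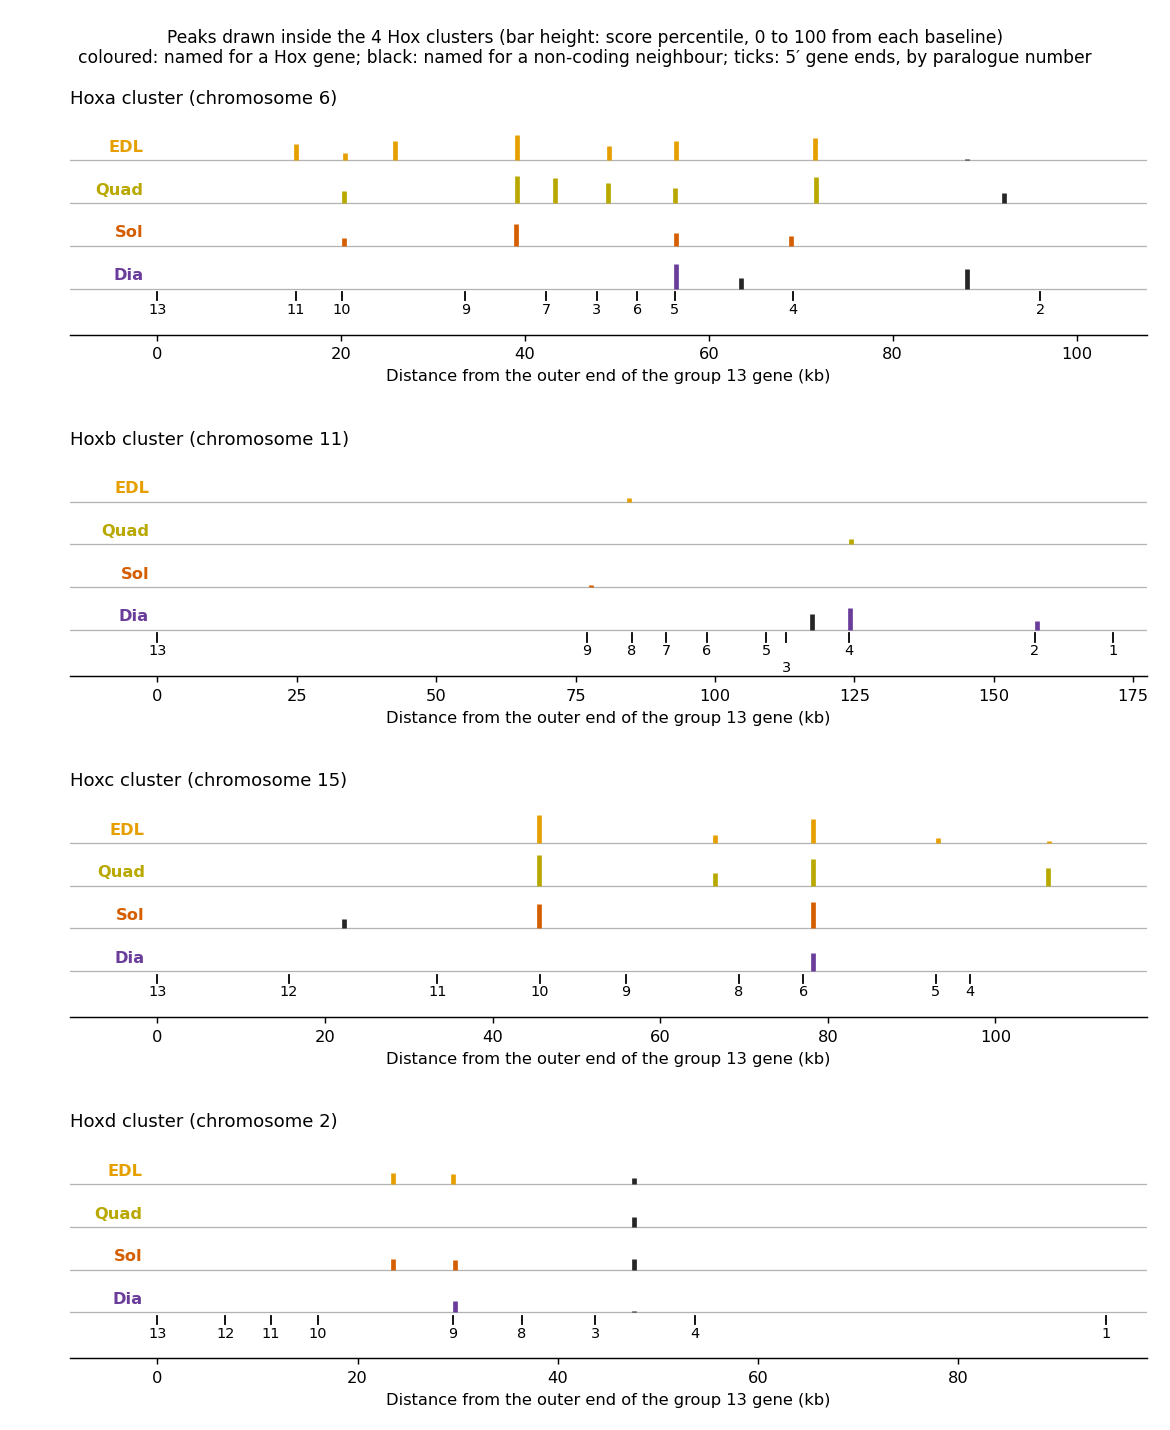
Peaks of reported genes inside the 4 clusters, drawn from the outer end of the group 13 gene (horizontal axis, kb) with 1 line per muscle and bars from percentile 0 to 100. Coloured bars are Hox peaks, black bars are peaks named for non-coding neighbours, and ticks mark the outermost RefSeq 5′ end of the genes drawn, which for group 3 genes with long transcripts lies out of number order; the Hoxa line of Dia is empty until group 5.

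Besides the one at Hoxd9, the Dia peaks were named for genes of groups 1 to 8. Hoxb4, a gene of the neck, had a 5′ UTR region (+339, chromosome 11, 96318472 to 96318719) at percentile 64.9 in Dia (51.1 to 76.1, 93 tags). In Quad it was at percentile 15.0 (0 to 44.2, 34 tags), and neither EDL nor Sol had a peak there, the nearest being 39418 bp and 46246 bp away. The ranges of Dia and Quad do not overlap. Hoxa5, which is needed for formation of lung and phrenic nerve, had a 5′ UTR region (+98, chromosome 6, 52204357 to 52204617) in all muscles. Its percentile was 57.9 in EDL (41.5 to 71.0), 43.4 in Quad (16.6 to 62.5) and 37.0 in Sol (16.9 to 54.9), with 71.9 in Dia (59.6 to 81.4). Dia ranked highest, with a range that overlaps those of EDL and Quad and not that of Sol. Hoxb2, a hindbrain and neck gene, had a peak in its coding part (+365, 96351881 to 96352113) in Dia alone at percentile 24.96, from 55 tags. The Dia list thus carried the Hoxb2 and Hoxb4 peaks of the head-end part of the b cluster, where the hindlimb lists held the weak Quad peak alone.

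Hoxb1 had 3 regions beyond the end of its cluster, between 41567 and 48009 bp from its TSS. The region at +42090 was at percentile 38.3 in EDL, 74.0 in Quad and 17.6 in Sol, with 9.72 in Dia. The region at +48009 was at percentile 44.3 in EDL, 63.0 in Quad and 46.9 in Sol, with 4.66 in Dia. Both were thus lowest in Dia, where they held 46 and 43 tags. The Dia range of the former (0 to 34.7) overlaps those of EDL and Sol and not that of Quad, and the Dia range of the latter (0 to 28.8) likewise overlaps those of EDL and Sol and not that of Quad. Quad alone had the region at +41567, at percentile 25.8.

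The intronic region 8834 bp downstream of the Hoxc8 TSS, whose sequence is given above, had the highest hindlimb mean percentile, 76.0, among regions open in every muscle. It was at percentile 71.8 in EDL (59.9 to 81.59), 77.5 in Quad (66.2 to 85.5) and 78.8 in Sol (68.3 to 86.3), with 53.4 in Dia (34.7 to 67.8). Dia was lowest, and its range overlaps those of EDL and Quad and ends below that of Sol. It was the 1 Dia peak named for a gene of the c cluster, against 5 in EDL, 7 in Quad and 3 in Sol.

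**Figure D4:**
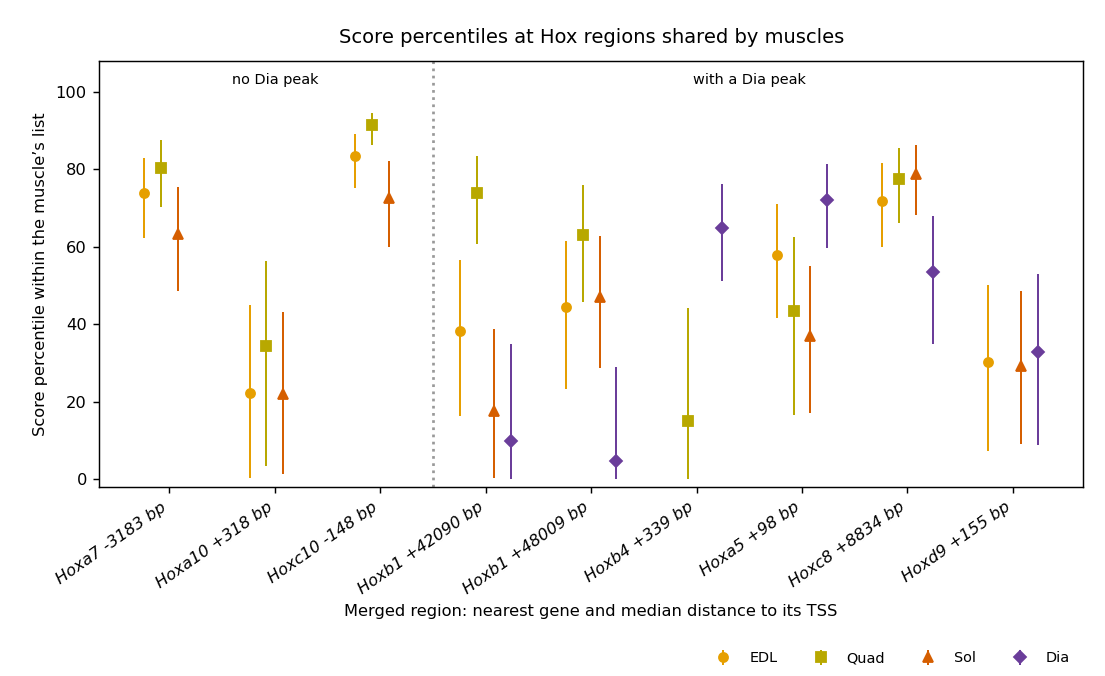
Score percentile within each list (vertical axis) at Hox regions named in the text and open in at least 3 muscles. Hoxb4 +339, open in 2 muscles, was added by choice, and the other regions open in 2 are not drawn. Regions are ordered within each side of the dotted line by paralogue number. Symbols stand for muscles and lines for the range that the 95% counting interval of the tags allows; Hoxc10 -148 reaches 91.3 in Quad with no Dia peak, while Hoxb4 +339 stands at 64.9 in Dia and 15.0 in Quad.

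The fourth comparison asked how Dia ranks the regions it shares. At 7 Hox regions with a peak in Dia and in a hindlimb list, the median of Dia minus the hindlimb mean was 2.999 percentile points, with values from -46.8 to 49.96. That mean covers only the hindlimb lists with a peak in the region. The highest value, at Hoxb4 +339, was thus Dia against Quad alone, and Hoxd9 +155 was read without Quad. Dia was higher at 4 and lower at 3. Dia was at least 20 points higher at 2 regions, Hoxa5 +98 and Hoxb4 +339, where 2.25% of the 19097 shared regions of the genome were. It was at least 20 points lower at 3, the regions Hoxb1 +42090, Hoxb1 +48009 and Hoxc8 +8834, where 18.9% of all shared regions were. The median over all shared regions was -5.50 points. With values in both directions and 7 regions, the Hox median was not distinguishable from that of the genome.

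Position relative to the start sites also varied between lists. Promoter peaks, which by the authors' annotation start 1 kb before a TSS and end 100 bp after it, made up 8 of the 18 Hox peaks in EDL, 44.4% (24.6% to 66.3%) against 30.7% of the list. They made up 3 in Quad, 16.7% (5.84% to 39.2%) against 25.5%, and 3 in Sol, 25% (8.89% to 53.2%) against 31.9%. Dia had 0 of 7 (0% to 35.4%), where 41.3% of its list were promoter peaks, and this interval ends below the list's share. These counts hold for Hox-named peaks only. The EDL peak at Hoxc5 +254 is counted through the promoter of a non-coding transcript. Promoter peaks inside the clusters were also named for non-coding genes, such as that of Gm15050 at percentile 58.4 in Dia and 4.70 in EDL. The class boundary is close to several peaks, since 4 of the 7 Dia peaks lay within 1 kb of a TSS, at Hoxa5, Hoxb2, Hoxb4 and Hoxd9. By this distance the order differed from that of the promoter class, with 57.1% of the Dia Hox peaks within 1 kb against 46.1% of the list. In EDL 9 lay within 1 kb, 50% against 34.6%, in Quad 6, 33.3% against 29.7%, and in Sol 7, 58.3% against 36.0%. Beyond 5 kb lay 4 in EDL, 8 in Quad and 4 in Sol, with 3 in Dia. No Hox gene had a promoter peak under its own name in all 4 lists. Hox peaks spread over low and high ranks, with a median percentile of 43.7 in EDL, 57.3 in Quad and 30.6 in Sol, with 32.7 in Dia.

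By cluster, Hoxa had 10 regions, of which 8 were open in hindlimb and not in Dia and 2 in every muscle. Hoxc had 8, with 7 and 1, and Hoxd had 2, with 1 and 0. Hoxb had 7 regions, of which 3 were open in hindlimb and not in Dia, 2 in every muscle and 1 in Dia alone. Over all merged regions these classes made up 59.9%, 26.9% and 4.61%. With at most 10 regions in a cluster, no difference between clusters is read from these counts. In peaks, Dia held 1 of the Hoxa cluster, 4 of Hoxb, 1 of Hoxc and 1 of Hoxd, where EDL held 8, 3, 5 and 2. Quad held 7, 4, 7 and 0, and Sol 4, 3, 3 and 2.

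Inside the clusters, Dia peaks were named for non-coding genes about as often as for Hox genes. Within the 4 clusters, from one outermost gene end to the other, Dia held 11 peaks, of which 5 were Hox peaks and 6 were named for a non-coding gene. EDL held 18, with 16 and 2, Quad 15, with 12 and 3, and Sol 13, with 9 and 4. The Gm15050 promoter, in a UTR that GENCODE gives to Hoxa3, was at percentile 58.4 in Dia and 4.70 in EDL. Dia alone was open near Hoxb5os, at percentile 47.6, and in an intron at Hoxaas3, at percentile 29.6. Hotair, an RNA gene of the Hoxc cluster, had a peak in Sol alone, at percentile 26.2. Hoxd3os1 had one in every list, at percentile 18.8 in EDL, 30.2 in Quad and 30.6 in Sol, with 4.66 in Dia. Counted this way, 17 of 28 regions, or 60.7% (42.4% to 76.4%), were open in hindlimb and not in Dia, where all merged regions gave 59.9%. Dia alone was open at 3, or 10.7% (3.71% to 27.2%) against 4.61%, and Dia in all at 11, or 39.3% (23.6% to 57.6%) against 40.1%. Without the Hox name as a condition, the cluster regions thus stood near the shares of the genome.

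The sequences under the Hox regions were rich in CpG. In the central 200 bp, the median ratio of observed to expected CpG was 0.756, against 0.282 over all regions. The ratio reached 0.6 in 15 of 27, or 55.6%, against 22.8%. It was higher in the 19 Hox regions within 5 kb of a TSS, with a median of 0.807, than in the 8 beyond, with 0.454. Regions with a Dia peak had a median of 0.693 and those without one 0.756. Median GC content was 58.5% against 53%. Short motifs were searched on both strands of the same windows. The homeodomain core TAATTA was found in 2 Hox regions, 7.41% against 2.33% of all, and these were Hoxc10 -148 and Hoxb1 +42090. The PBX-HOX form TGATTNAT was found in 1, Hoxb2 +365 (1.996% of all), and TTTATNG, a form of high-numbered HOX proteins, in 3, or 11.1% against 6.18%. The MEIS core TGACAG was found in 3, or 11.1% against 16.5%, and the E-box CAGCTG in 7, or 25.9% against 20.4%. A core of the motif of the insulator protein CTCF was found in 2 regions, Hoxa7 -3183 and Hoxa10 +318, 7.41% against 4.81%, both listed in the 3 hindlimb muscles and not in Dia. A match of letters is a description of the sequence and not a binding site.

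Genes of the Hox pathway outside the clusters were mostly open in every muscle. Among 9 cofactor genes, 6 had a peak in EDL, 9 in Quad and 6 in Sol, with 6 in Dia. The promoter of Pknox1, a MEIS-related partner, was at percentile 97.6 in EDL, 99.1 in Quad and 98.1 in Sol, with 97.9 in Dia. That of Meis1, another partner, was at 83.0, 88.0, 74.7 and 73.5 in that order. Among 12 genes upstream of Hox transcription, such as retinoic acid receptors and Polycomb or Trithorax members, 9 had a peak in EDL, 10 in Quad and 9 in Sol, with 9 in Dia. The caudal genes Cdx2 and Cdx4 had none in any list. Of the neighbours of the clusters, 7 had a peak in EDL, 6 in Quad and 7 in Sol, with 6 in Dia.

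In peaks, the cofactors held 25 in EDL, 33 in Quad and 20 in Sol, with 18 in Dia, and the upstream genes held 22, 32, 17 and 16 in that order. The neighbours held 21, 23, 17 and 10. The Dia list as a whole was 71.6% as long as that of EDL. Against EDL, the Dia peaks came to 72% for the cofactors, 72.7% for the upstream genes and 47.6% for the neighbours, and the Hox peaks to 38.9%. The first pair thus stood near the ratio of the list lengths against EDL. Against Quad, where the list length gives 53.5%, the cofactors came to 54.5% and the upstream genes to slightly less. Against Sol, where it gives 75.0%, both sets stood above it, the upstream genes at 94.1%. The Hox peaks came to 38.9% of those in Quad and 58.3% of those in Sol, below the list length each time. These ratios carry no interval.

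Of 9 limb regulators, 5 had a peak in EDL, 8 in Quad and 5 in Sol, with 4 in Dia. Their peaks numbered 18 in EDL, 25 in Quad and 12 in Sol, with 6 in Dia, or 33.3% of those in EDL. Thus the number of peaks was lower in Dia by more than the list length, while by genes EDL, Sol and Dia were within 1 gene. Pitx1, a determinant of hindlimb identity, had 4 peaks in EDL, 4 in Quad and 2 in Sol, with 1 in Dia. In the hindlimb lists the nearest of them lay between -19530 and -19324 bp from its TSS, and the Dia peak lay at +20259. Tbx4, its hindlimb partner, had 1 peak in EDL, 2 in Quad, and none in Sol and Dia. Tbx5, a gene of the forelimb, had 3 peaks in Quad and none elsewhere.

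Markers of cell types in muscle differed between the lists, with values given in the order EDL, Quad, Sol and Dia. The 8 skeletal muscle markers held 22, 23, 23 and 16 peaks, at 6, 7, 8 and 5 genes. The 5 fibroblast markers held 11, 15, 10 and 3 peaks, and the Dia count was 27.3% of that in EDL. By genes they numbered 4, 5, 3 and 3, since Pdgfra had no peak in Sol and Dia, Dcn none in Dia and Ly6a none in EDL and Sol. The 5 endothelial markers held 31, 34, 29 and 16 peaks (51.6% in Dia against EDL), and the 4 leukocyte markers 3, 3, 1 and 0. Against EDL, fibroblast, endothelial and leukocyte peaks were thus fewer in Dia than the list length of 71.6% gives, and those of skeletal muscle, at 72.7%, were near it. Skeletal muscle peaks in Dia came to 69.6% of those in Quad, where the list length gives 53.5%. They came to 69.6% of those in Sol, where it gives 75.0%.

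The smaller marker sets held few peaks. The 3 satellite cell markers held 4, 10, 4 and 2 peaks, the 3 tendon markers 2, 5, 2 and 1, and the 4 smooth muscle and pericyte markers 5, 10, 4 and 2. The 3 Schwann cell and nerve markers held 1, 1, 2 and 1, with none at Sox10. The 4 mesothelial markers held 1, 3, 2 and 3, of which Upk3b had 1, 2, 2 and 1, Wt1 1 in Quad and Lrrn4 2 in Dia, with none at Msln. The 2 adipocyte markers held 1, 0, 0 and 2. The satellite cell, tendon and smooth muscle sets were thus lowest in Dia, which is also the shortest list. Their Dia peaks came to 50%, 50% and 40% of those in EDL, where the list length gives 71.6%. Each came to 20% of those in Quad (list length 53.5%) and 50% of those in Sol (75.0%). These ratios rest on few peaks and carry no interval. The nerve, mesothelial and adipocyte sets held at least as many peaks in Dia as in EDL. The part of cell composition in the Hox pattern was not tested.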

How the data were processed

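ATAC-seq peak lists of EDL, Quad, Sol and Dia were used, 1 library per muscle. Per the methods and the submitters' processing notes, the authors aligned read pairs to mm10 with Bowtie2 and called and annotated fixed-width peaks with HOMER, separately in each library. The deposited score of a peak is its tag count scaled by library size. A removal of mitochondrial or repeat reads and a Tn5 shift were not stated, and peak width (208 bp in EDL, 188 in Quad, 206 in Sol, 232 in Dia) and threshold differed between lists. Peaks were chosen by the authors' nearest gene, and peaks overlapping by at least 1 bp were merged. Tags were inferred from the step between scores, and their counting intervals were turned into percentiles within the list. Coordinates are 1-based. Gene models came from RefSeq (GRCm38.p6) and GENCODE vM21. With 1 library per muscle no p-value was computed, and alternatives varied list length, score limit, distance, overlap and the hindlimb set. Calculations used Python 3.11.15, pandas 2.3.3 and scipy 1.17.1, and the merging and counting steps were tested on simulated data. Hox genes could be named, and other genes only from fixed lists of cofactors, limb and upstream regulators, neighbours and markers. Of 13 neighbours, 10 were found in RefSeq by symbol. The members and lists were chosen with earlier results of these data known. A few items are not reported here.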

Additional observations from a re-analysis of the deposited data

How the results depend on the processing

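Over 11 alternative settings 57 values were recomputed. The limit at the lowest Dia score removed no Hox peak, so its 8 values could not move. Of the 40 other counts and shares, 28 stayed within 1.5 times the reported count or inside the interval of the reported share. At 20000 peaks per list, taken by score, Hox peaks fell to 11 in Quad and 6 in Sol, against 12 in EDL and 6 in Dia, and hindlimb genes of groups 9 to 13 with a peak to 4. With the upper 50% of each list there were 7 in EDL, 11 in Quad and 3 in Sol, with 3 in Dia, and groups 9 to 13 kept 2 genes in hindlimb and 0 in Dia. Counting every peak inside the clusters gave 11 in Dia, and peaks within 5 kb of a TSS gave 10 in Quad and 4 in Dia. The low count of Dia against Sol thus depended on list length and on naming. The share of regions open in hindlimb and not in Dia stayed between 60.7% and 75%. The median percentile difference ranged from -9.81 to 17.8 and changed sign at 20000 peaks per list (-6.41), with EDL and Sol as the hindlimb set (-7.62) and when only Hox-named peaks opened a region (-9.81). In groups 10 to 13, the genes with a peak in EDL, Quad and Sol numbered 4, 3 and 3 with all peaks, 4, 1 and 2 at 20000 peaks and 2, 1 and 1 in the upper 50%, and Hoxc10 was the gene that all 3 shared under both limits. Dia has none there, which limits that only remove peaks cannot change. The limit at the lowest Dia score and the rule on Hox-named peaks were added once the data had been seen. No paired analysis was possible because each muscle has 1 library here, without replicate numbers.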

Other observations

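The surroundings of the clusters were read in flanks of 300 kb beyond the outermost genes, a summary chosen after seeing the data. Beyond the group 13 end of the Hoxa cluster, EDL held 10 peaks, Quad 11, Sol 3 and Dia 0. They formed 15 regions, of which 2 were open in all 3 hindlimb muscles, 4 in EDL and Quad alone and 8 in a single muscle. Most were named for the RNA gene 1700094M24Rik, with 7 peaks in EDL, 10 in Quad and 3 in Sol, at percentiles between 2.97 in EDL and 64.0 in Quad. Hottip, an RNA gene next to Hoxa13, had 1 low-ranked peak in EDL and 1 in Quad, at percentiles 2.97 and 4.70, and the homeobox gene Evx1 had 1 in EDL at 24.04. This was the 1 flank of 8 without a Dia peak. On the other side of the same cluster, EDL held 5 peaks, Quad 6, Sol 5 and Dia 3, among them the Skap2 promoter at percentiles from 85.9 in Quad to 93.2 in Dia.

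Beyond the group 1 end of the Hoxd cluster, EDL held 6 peaks, Quad 9, Sol 5 and Dia 1, all named for Mtx2. Dia was listed at 1 of the 9 regions, the Mtx2 promoter, at percentile 23.4, against 39.6 in EDL, 53.3 in Quad and 44.8 in Sol. Over the 8 flanks, 61 of 88 regions, or 69.3% (95% Wilson interval 59.0% to 78.0%), were open in hindlimb and not in Dia, where all merged regions gave 59.9%. The background lies just inside the interval. The flanks also hold the regions of Hoxb1, Hoxc4 and Hoxc13 beyond the cluster ends, which were already counted as Hox regions. Single flanks ranged from 25% to 100%, with between 4 and 28 regions each.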
